A study of Mus musculus with 12 samples.

Results

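Collagen chain genes encode the alpha chains from which collagens are built, and 44 of the 23420 genes in the deposited counts have a symbol made of Col, a type number, the letter a and a chain number. All 44 genes were taken, whatever their level. Of these, 42 had enough counts to be tested, and Col4a4 and Col9a1 did not. By the structure of the protein they fall into 11 fibrillar chains, 6 chains of the basement membrane network, 3 short-chain network formers, 6 beaded filament chains, 1 anchoring fibril chain, 9 fibril-associated chains, 4 transmembrane chains and 2 multiplexins, with 2 chains left unclassified.

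RNA was sequenced from 12 mouse libraries, 3 in each of 4 groups along the path of mouse embryonic fibroblasts (MEF) to induced pluripotent stem cells (iPSC). The starting group is MEF, Stage1 is day 6 of reprogramming, Stage2 is 4 days further on, and the iPSC are established cells. All groups share the mixed strain label of C57BL/6 x 129, and per the series text the groups other than MEF were purified by sorting for Oct4-GFP, a fluorescent reporter of the pluripotency gene Pou5f1. The reprogramming factors, the way they were delivered and the cultures, animals or clones behind the libraries are not given in the sources used here. The p-values below therefore speak of the spread among the sequenced libraries alone. Groups were read from the titles, since a second stage label names a different group for all 12 libraries. That label moves whole groups of 3 together: it calls the Stage1 libraries MEF, the Stage2 libraries Stage 1, the iPSC libraries Stage 2 and the MEF libraries iPSCs. The sort marker label moves with it, so that the libraries titled Stage1 are the ones marked unsorted. Pou5f1 was at 0.877 to 3.94 counts per 1000000 gene counts (CPM) in the libraries titled MEF and at 444 to 588, 599.6 to 682 and 642 to 733 CPM in those titled Stage1, Stage2 and iPSC. The summed level of 12 fibroblast markers was 26057 to 27593 CPM in MEF, 21.8 to 24.7 CPM at Stage1, 111 to 165 CPM at Stage2 and 73.7 to 82.9 CPM in iPSC. These markers set the libraries titled MEF apart as fibroblasts, but they do not order the other groups, whose names rest on the titles.

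Collagen alpha chains wind around each other into a helix, and which chains join decides what is built. Fibrillar collagens I, II, III, V and XI form the tensile fibrils of connective tissue, with I, III and V typical of fibroblasts and II and XI of cartilage, and fibril-associated collagens attach to those fibrils. Collagen IV forms the sheet-like network of basement membranes, the matrix under epithelia that the early embryo also lays down, and the multiplexin collagen XVIII sits in the same sheets as a heparan sulfate proteoglycan. Transmembrane collagens stay anchored in the cell surface, where they serve in adhesion.

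The stretches upstream of 6 chain genes are shown because these genes stand for the different courses described below. Col3a1, Col5a1 and Col8a1 lost most of their RNA at Stage1 and regained a little at Stage2. Col18a1 had its highest group mean in iPSC, Col13a1 had no count in MEF, and Col6a5 had its highest group mean at Stage1. The sequences are from RefSeq on GRCm38.p6 (mm10), run 5′ to 3′ on the strand of the gene, and end just before the first annotated exon. Capitals mark a CCAAT box, a GC box or a TATA box on either strand. The GC box was searched by the letters GGGCGG. The TATA box was searched by the word TATAAA.
Col3a1 lies at chr1:45311288-45311537 on the plus strand, Col5a1 at chr2:27886175-27886424 on the plus strand and Col8a1 at chr16:57754738-57754987 on the minus strand.
Col18a1 lies at chr10:77166549-77166780, Col13a1 at chr10:61979109-61979358 and Col6a5 at chr9:105960644-105960893, each on the minus strand.
Col3a1: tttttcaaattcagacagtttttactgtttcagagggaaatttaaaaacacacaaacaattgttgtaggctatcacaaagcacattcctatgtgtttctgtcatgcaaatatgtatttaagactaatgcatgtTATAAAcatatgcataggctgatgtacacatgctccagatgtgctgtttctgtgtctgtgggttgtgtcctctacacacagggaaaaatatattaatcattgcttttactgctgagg
Col5a1: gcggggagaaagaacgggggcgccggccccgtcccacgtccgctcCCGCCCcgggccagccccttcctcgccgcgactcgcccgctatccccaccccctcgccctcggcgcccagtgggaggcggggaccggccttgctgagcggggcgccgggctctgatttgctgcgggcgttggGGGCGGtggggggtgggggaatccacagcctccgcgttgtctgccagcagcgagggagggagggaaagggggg
Col8a1: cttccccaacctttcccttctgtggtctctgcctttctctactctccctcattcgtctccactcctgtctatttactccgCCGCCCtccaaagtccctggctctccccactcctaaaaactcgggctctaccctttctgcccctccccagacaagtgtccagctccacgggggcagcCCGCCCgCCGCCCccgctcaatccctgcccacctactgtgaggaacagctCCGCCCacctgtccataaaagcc
Col18a1: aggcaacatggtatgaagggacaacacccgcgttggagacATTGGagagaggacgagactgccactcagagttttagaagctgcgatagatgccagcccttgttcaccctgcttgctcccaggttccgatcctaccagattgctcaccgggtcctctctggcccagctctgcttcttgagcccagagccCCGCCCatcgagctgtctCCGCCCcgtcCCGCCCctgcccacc
Col13a1: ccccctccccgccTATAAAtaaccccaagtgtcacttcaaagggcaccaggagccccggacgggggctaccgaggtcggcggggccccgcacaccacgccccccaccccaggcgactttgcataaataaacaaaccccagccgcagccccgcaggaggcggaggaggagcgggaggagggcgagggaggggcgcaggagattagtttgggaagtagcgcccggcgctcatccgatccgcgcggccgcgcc
Col6a5: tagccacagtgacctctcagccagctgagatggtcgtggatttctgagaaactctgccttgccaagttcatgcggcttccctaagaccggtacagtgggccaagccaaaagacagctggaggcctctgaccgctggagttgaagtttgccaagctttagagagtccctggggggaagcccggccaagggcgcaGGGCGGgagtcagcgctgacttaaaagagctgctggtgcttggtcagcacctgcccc
The Col3a1 stretch holds a TATA box and no GC box, the Col5a1 and Col8a1 stretches hold GC boxes and no TATA box, and the Col13a1 stretch holds a TATA box. Promoter windows of 250 bases before and 50 bases after the start were found for 35 of the 44 genes, as 38 windows. A GC box was in 60.5% of these windows and in 35.7% of all 32851 windows of the same length in the table. The TATA box was in 13.2% of the collagen windows and in 13.6% of all windows, and the CCAAT box in 34.2% and 37.4%. Each motif was searched on both strands, and a match is a description of the letters only. Col18a1 has a second window at chr10:77113656-77113955, not shown, which holds no GC box, TATA box or CCAAT box. Counts per gene do not tell the starts of a gene apart.

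Collagen RNA was abundant in MEF and scarce in every other group. The 44 genes together took 2.40 ± 0.523% of gene counts in MEF, 0.0150 ± 0.00372% at Stage1, 0.0563 ± 0.00543% at Stage2 and 0.0449 ± 0.00193% in iPSC (SD, n = 3 each). Summed over the 44 genes, the level scaled by the trimmed mean of M values (TMM) was 23703, 25248 and 34449 CPM in the MEF libraries, 192, 132 and 136 CPM at Stage1, 515, 448 and 537 CPM at Stage2 and 414, 427 and 440.5 CPM in iPSC. The lowest MEF library was far above all other libraries, the Stage1 libraries were the lowest, and the Stage2 libraries all lay above the iPSC libraries. A mean of at least 5 CPM was reached by 26 genes in MEF, 7 at Stage1, 13 at Stage2 and 13 in iPSC. In bulk RNA, fewer cells that make a collagen and less of its RNA per cell cannot be told apart. Gene totals ran from 8916223 to 19011944 counts per library. Of the reads in genes, outside genes or ambiguous, those outside genes were 8.86% to 9.42% in MEF and 35.0% to 53.4% in the other libraries. The part of this difference in these levels was not tested.

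**Figure D1:**
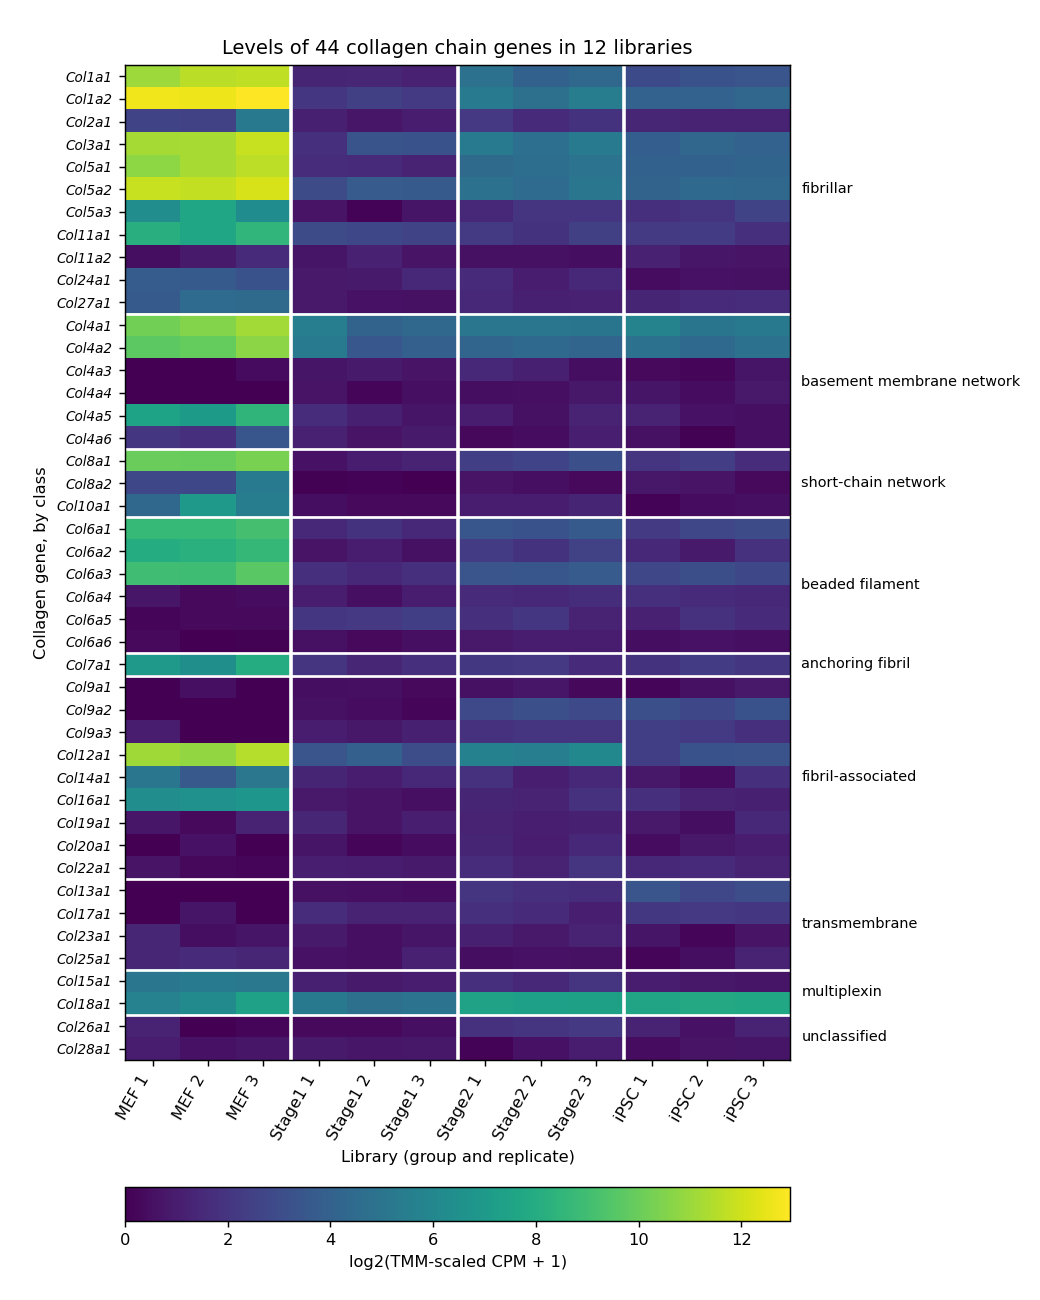
Level of each of the 44 collagen chain genes (rows, by class) in each of the 12 libraries (columns), as log2(TMM-scaled CPM + 1) from dark (0) to bright. The bright block of fibrillar, collagen IV, collagen VI and collagen XII chains is in the 3 MEF columns, while Col18a1 is bright in the Stage2 and iPSC columns.

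At Stage1, against MEF, the fibrillar collagens were at a small fraction of their MEF level. Of the 42 genes tested, 26 were lower and 8 higher at a Benjamini-Hochberg adjusted p below 0.05 in edgeR's quasi-likelihood test, where 36.1% of all 14770 genes tested were lower and 44.2% higher, 80.4% in either direction. The median log2 fold change was -4.50 over the 42 genes and 0.27 over all genes. The 26 genes that fell included 10 of 11 fibrillar chains, 4 of 5 tested chains of the basement membrane network, all 3 short-chain network formers, the anchoring fibril chain Col7a1, both multiplexins, 3 of 6 beaded filament chains and 3 of 8 tested fibril-associated chains. The 8 that rose were Col4a3, Col6a5, Col6a6, Col9a2, Col9a3, Col22a1, Col13a1 and Col17a1, none of which reached a mean of 5 CPM at Stage1. All 26 lower calls held without each library in turn, and 4 of the 8 higher ones did (Col13a1, Col17a1, Col6a5 and Col9a2). Of the other 4, Col22a1 was lost without MEF replicate 3, Col4a3 without MEF replicate 1, MEF replicate 2 or Stage1 replicate 2, and Col6a6 and Col9a3 without MEF replicate 2, MEF replicate 3, Stage1 replicate 1 or Stage1 replicate 3 and, for Col9a3, without 5 libraries of the other groups. When only the 2 groups compared were fitted, 3 genes were higher. In that fit Col9a3 was not called (edgeR, adjusted p = 0.141), and others of the 8 did not pass the filter on low counts. Those others were tested in the main fit through their counts in the other groups. The fits without each library kept those groups, so they do not test this dependence.

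At Stage2, against Stage1, a broad set of collagens came back at low level. Of the 42 genes tested, 19 rose and 1 fell (edgeR, adjusted p below 0.05), where 20.6% of all genes were higher and 19.8% lower, 40.4% in either direction. The median log2 fold change was 1.38 over the 42 genes and 0.02 over all genes. Of the 19 that rose, 15 had fallen at Stage1: the fibrillar chains Col1a1, Col1a2, Col3a1, Col5a1, Col5a2, Col5a3 and Col27a1, the collagen VI chains Col6a1, Col6a2 and Col6a3, and Col8a1, Col12a1, Col16a1, Col15a1 and Col18a1. The 5 tested chains of the basement membrane network were not called. The 1 gene that fell was Col11a1, and that call was lost without Stage1 replicate 1, Stage1 replicate 2, Stage2 replicate 1 or Stage2 replicate 2 and with library totals. This comparison and the one with MEF share the Stage1 libraries. Without each library in turn 17 of the 19 rises were called, the exceptions being Col27a1, lost without Stage1 replicate 2, Stage1 replicate 3, Stage2 replicate 1 or Stage2 replicate 3, and Col6a4, lost without any 1 of the Stage1 or Stage2 libraries, iPSC replicate 1 or iPSC replicate 2. Col6a4 was also lost with no filter on low counts.

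In iPSC, against Stage2, part of the same set went down again. Of the 42 genes tested, 11 were lower and 1 higher (edgeR, adjusted p below 0.05), where 8.87% of all genes were lower and 9.21% higher, 18.1% in either direction. The median log2 fold change was -0.46 over the 42 genes and 0.04 over all genes. The lower genes were Col1a1, Col1a2, Col3a1, Col5a1, Col24a1, Col6a1, Col6a2, Col6a3, Col8a1, Col12a1 and Col15a1, and the higher gene was Col13a1. This count rested on single libraries: it was 4 without Stage2 replicate 3, 4 without iPSC replicate 1, 7 without Stage2 replicate 1 and 7 without iPSC replicate 3. Col1a1, Col1a2, Col12a1 and Col15a1 were lower without each library in turn, as Col13a1 was higher. With a test against a 2-fold threshold, 1 gene was lower and 0 were higher.

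Set directly against Stage1, iPSC had 17 higher and 2 lower genes of the 42 (edgeR, adjusted p below 0.05), where 21.3% of all genes were higher and 18.1% lower, 39.4% in either direction. The median log2 fold change was 0.75 over the 42 genes and 0.01 over all genes. The 2 lower genes were Col11a1 and Col24a1, and neither call held without each library in turn: Col11a1 was lost without Stage1 replicate 1 or iPSC replicate 3, and Col24a1 without Stage1 replicate 3 or any 1 of the iPSC libraries, among others. Of the 17 higher calls 13 held, and Col16a1, Col6a2, Col6a4 and Col9a3 did not. Against MEF, iPSC had 26 lower and 9 higher genes, where 35.8% of all genes were lower and 44.9% higher, 80.8% in either direction. Against MEF, Stage2 had 26 lower and 12 higher genes, where 36.4% of all genes were lower and 44.6% higher, 81.0% in either direction. Without each library in turn, 25 of the 26 lower calls in iPSC (all but Col25a1, lost without 9 of the 12) and all 26 at Stage2 held.

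The fibrillar chains carried most of the collagen RNA of MEF. Col1a1 and Col1a2, the chains of collagen I, were at 2144, 3157 and 3392 CPM and 6492, 6269 and 7931 CPM in the MEF libraries. Col1a1 was at 1.52, 1.61 and 1.26 CPM at Stage1, 27.8, 15.5 and 19.1 CPM at Stage2 and 6.64, 8.47 and 9.78 CPM in iPSC. Col1a2 was at 3.11, 4.39 and 3.54 CPM at Stage1, 37.6, 26.2 and 43.7 CPM at Stage2 and 16.0, 16.0 and 18.4 CPM in iPSC. For both chains the groups did not overlap at any step: MEF was highest, then Stage2, then iPSC, then Stage1. On the log2 scale Col1a1 changed by -10.94 ± 0.32 (SE) at Stage1 against MEF, by 3.81 ± 0.28 at Stage2 against Stage1 and by -1.32 ± 0.22 in iPSC against Stage2. The edgeR adjusted p of these 3 changes was 1.06e-14, 2.29e-08 and 0.00108. Col1a2 changed by -10.88 ± 0.27, 3.29 ± 0.21 and -1.09 ± 0.18 at the same steps (edgeR, adjusted p = 3.09e-15, 5.14e-09 and 0.000976). Against MEF, the iPSC level of Col1a2 differed by -8.68 ± 0.24 on the log2 scale (edgeR, adjusted p = 7.44e-15).

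Col3a1, the chain of collagen III, which copolymerises with collagen I in soft tissue, and Col5a1, a chain of collagen V, which seeds fibrils and sets their width, were also called lower, higher and lower along the 3 steps. Col3a1 was at 2335, 2436 and 3751 CPM in MEF, 2.42, 9.22 and 8.67 CPM at Stage1, 38.3, 25.2 and 37.9 CPM at Stage2 and 13.9, 18.3 and 15.6 CPM in iPSC. Col5a1 was at 1704, 2489 and 3212 CPM in MEF, 2.14, 2.06 and 1.43 CPM at Stage1, 21.0, 24.6 and 30.1 CPM at Stage2 and 15.2, 15.2 and 17 CPM in iPSC. Neither gene overlapped between neighbouring stages, and Stage1 replicate 1 was the lowest library for Col3a1. Col3a1 changed by -8.74 ± 0.44, 2.34 ± 0.36 and -1.08 ± 0.33 on the log2 scale along the 3 steps (edgeR, adjusted p = 8.7e-11, 0.000139 and 0.0361), and Col5a1 by -10.35 ± 0.30, 3.74 ± 0.26 and -0.68 ± 0.20 (edgeR, adjusted p = 9.68e-15, 1.04e-08 and 0.0302). The last change of each rested on single libraries. That of Col3a1 was not called without MEF replicate 2, Stage2 replicate 1, Stage2 replicate 3 or any 1 of the iPSC libraries, where the edgeR adjusted p was at most 0.139, nor without a filter on low counts (0.131). That of Col5a1 was not called without Stage2 replicate 2, Stage2 replicate 3 or any 1 of the iPSC libraries, with an edgeR adjusted p of at most 0.16.

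Col5a2, the partner of Col5a1, lies tail to tail with Col3a1 on chromosome 1, with 24614 bases between them on GRCm38. Col5a2 was at 3677, 3454 and 4680.3 CPM in MEF, 6.78, 12.1 and 11.5 CPM at Stage1, 28.3, 22.4 and 32.4 CPM at Stage2 and 16.5, 20.4 and 19.5 CPM in iPSC. Its Stage1 libraries lay below all others, and its iPSC libraries lay below its Stage2 libraries. It changed at Stage1 by -8.61 ± 0.26 and at Stage2 by 1.46 ± 0.21 on the log2 scale (edgeR, adjusted p = 1.36e-14 and 3.57e-05). In iPSC against Stage2 it was at -0.56 ± 0.20 with an edgeR adjusted p of 0.0609, and it passed the threshold with library totals (adjusted p = 0.028), in DESeq2 (adjusted p = 0.0238) and without Stage1 replicate 1 or any 1 of the MEF libraries. Col5a3, a minor chain of collagen V, was at 79.9, 201 and 77.7 CPM in MEF, 0.622, 0.0895 and 0.673 CPM at Stage1, 1.86, 2.82 and 2.97 CPM at Stage2 and 2.35, 2.99 and 5.27 CPM in iPSC. MEF replicate 2 was the highest library, and the Stage2 and iPSC libraries overlapped. Col5a3 changed by -7.94 ± 0.53 at Stage1 and by 2.42 ± 0.62 at Stage2 (edgeR, adjusted p = 1.08e-09 and 0.00607).

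Col11a1, a chain of the thin cartilage-type fibrils, did not come back. It was at 275, 202 and 367 CPM in MEF, 6.98, 5.91 and 5.30 CPM at Stage1, 3.62, 2.68 and 4.53 CPM at Stage2 and 3.53, 3.75 and 2.30 CPM in iPSC. The Stage1 libraries lay above the Stage2 and iPSC libraries, which overlapped each other. Col11a1 changed by -5.53 ± 0.25 at Stage1 against MEF (edgeR, adjusted p = 1.34e-12) and by -0.75 ± 0.26 at Stage2 against Stage1 (adjusted p = 0.0294), the call that single libraries removed. Of the minor fibrillar chains, Col27a1 averaged 18.1 ± 5.69 CPM in MEF, 0.624 ± 0.179 at Stage1, 1.42 ± 0.300 at Stage2 and 1.86 ± 0.316 in iPSC (SD, n = 3 each). Col24a1 averaged 11 ± 2.15 CPM in MEF, 1.14 ± 0.475 at Stage1, 1.59 ± 0.469 at Stage2 and 0.467 ± 0.116 in iPSC (SD, n = 3 each). Col2a1, the main collagen of cartilage, averaged 15.8 ± 18.6 CPM in MEF, where replicate 3 alone was at 37.3 CPM, and 0.967 to 2.73 CPM in the other groups. Col11a2 was not called in any of the 6 comparisons and had group means of 0.457 to 1.10 CPM. Col2a1 and Col11a1 are shared with cartilage, and the chondrocyte markers in the files summed to 10.8 to 18.5 CPM in MEF, 4.08 to 5.13 CPM at Stage1, 9.48 to 12.2 CPM at Stage2 and 17.4 to 20.0 CPM in iPSC.

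The fibroblast markers moved with these steps. Their sum was 122, 111 and 165 CPM in the Stage2 libraries, against 21.8, 23.9 and 24.7 CPM in the Stage1 libraries, and was 82.2, 82.9 and 73.7 CPM in iPSC. In the same Stage2 libraries the fibrillar chains summed to 166, 124 and 177 CPM, against 27.1, 38.8 and 36.2 CPM at Stage1, and in iPSC to 78.8, 89.7 and 92.5 CPM. Of the 12 fibroblast markers, 9 rose and 0 fell at Stage2 against Stage1, and 8 fell and 1 rose in iPSC against Stage2 (edgeR, adjusted p below 0.05), where 20.6% of all genes were higher at the first of these steps and 8.87% lower at the second. Lum, which averaged 16.1 CPM in MEF, was the 1 marker of the 12 with no count in the 3 iPSC libraries. In iPSC 6 of the 12 reached a mean of 5 CPM. Pdgfra was at 12.8% of its MEF mean at Stage2 and at 25.3% in iPSC. The part of fibroblast-like cells in the collagen levels of the sorted groups was not tested.

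**Figure D2:**
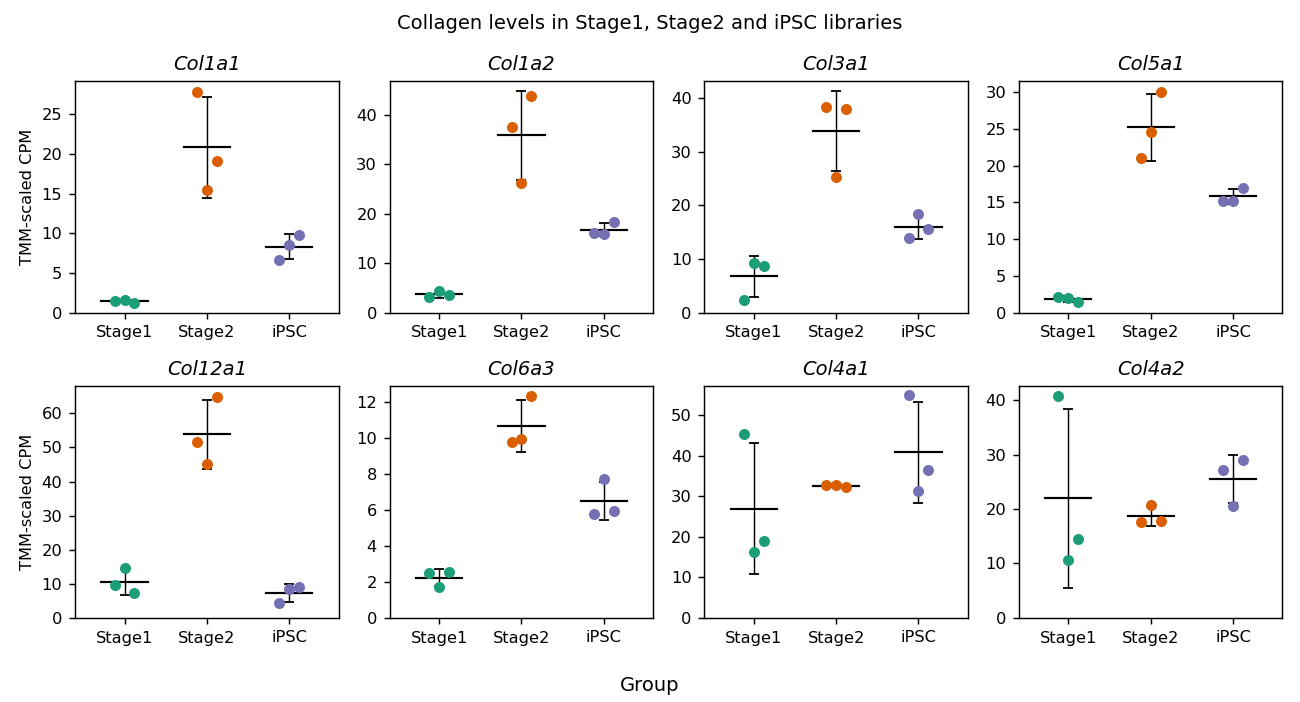
TMM-scaled CPM of 8 collagen genes in the 3 libraries (points) of Stage1, Stage2 and iPSC, with the mean (wide line) and SD (whiskers), on a scale of its own for each gene. Col1a1, Col1a2, Col3a1, Col5a1 and Col6a3 are highest at Stage2 and lowest at Stage1, Col12a1 is high at Stage2 alone, and Col4a1 and Col4a2 overlap between the groups with Stage1 replicate 1 above the other Stage1 libraries.

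The fibril-associated chains held a gene that rose at Stage2 and fell again in iPSC, and a gene with no count in MEF. Col12a1, which coats collagen I fibrils in tendon, skin and muscle, was at 2226, 1827 and 2935 CPM in MEF, 9.54, 14.6 and 7.41 CPM at Stage1, 51.5, 45.1 and 64.9 CPM at Stage2 and 4.37, 8.54 and 9.02 CPM in iPSC. The Stage2 libraries stood apart from the Stage1 and iPSC libraries, which overlapped each other. On the log2 scale Col12a1 rose by 2.36 ± 0.27 at Stage2 against Stage1 and changed by -2.88 ± 0.28 in iPSC against Stage2 (edgeR, adjusted p = 3.97e-06 and 1.43e-05). In iPSC against Stage1 its change of -0.51 ± 0.28 did not pass (edgeR, adjusted p = 0.165). It was the gene lower in iPSC than at Stage2 when a 2-fold threshold was set.

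Col9a2, a chain of the cartilage collagen IX, ran the other way. It had 0 counts in the 3 MEF libraries, and was at 0.484, 0.358 and 0.168 CPM at Stage1, 6.25, 8.04 and 6.27 CPM at Stage2 and 8.06, 6.11 and 8.76 CPM in iPSC. The Stage1 libraries lay below those of Stage2 and iPSC, which overlapped. Set against a floor of 3 counts over the MEF group, Col9a2 was at least 4.57-fold higher at Stage1, at least 90.9-fold higher at Stage2 and at least 99.3-fold higher in iPSC than in MEF, where such floors and the counting intervals below cover counting error only. It rose by 4.28 ± 0.43 on the log2 scale at Stage2 against Stage1 (edgeR, adjusted p = 1.77e-06). Of its partner chains, Col9a3 averaged 2.83 ± 0.175 CPM at Stage2 and 3.40 ± 1.04 CPM in iPSC, and Col9a1, with 7 to 19 counts per group, was not tested. Col9a3 shares 234 exonic bases, 6.07% of its exons, with Tcfl5 on the opposite strand, and without known strandedness reads there cannot be told apart. The remaining chains of the class were low outside MEF: Col14a1 averaged 26.3 ± 13.2 CPM in MEF and 1.19 to 1.83 CPM elsewhere, and Col16a1 averaged 94.4 ± 14.9 CPM in MEF and 0.626 to 1.90 CPM elsewhere (SD, n = 3 each). Col22a1 was called higher than MEF in all 3 groups with means of 1.01 to 2.13 CPM, Col20a1 at Stage2 alone with 1.45 ± 0.423 CPM, and Col19a1 in none.

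Of the 5 tested chains of the basement membrane network, 4 were lower than MEF in every other group, and none was called between Stage1, Stage2 and iPSC. Over all genes, 36.1%, 36.4% and 35.8% were lower than MEF at Stage1, at Stage2 and in iPSC, while 40.4% were called at Stage2 against Stage1, 18.1% in iPSC against Stage2 and 39.4% in iPSC against Stage1. Col4a1 and Col4a2, which together build the common collagen IV network, lie head to head on chromosome 8 of GRCm38, Col4a1 at chr8:11198423-11312826 on the minus strand and Col4a2 at chr8:11312805-11449287 on the plus strand. Col4a1 was at 1166, 1475 and 2279 CPM in MEF, 45.5, 16.4 and 19.1 CPM at Stage1, 32.9, 32.8 and 32.2 CPM at Stage2 and 55.0, 31.2 and 36.6 CPM in iPSC. Col4a2 was at 831, 956 and 1651 CPM in MEF, 40.8, 10.6 and 14.5 CPM at Stage1, 17.7, 20.7 and 17.7 CPM at Stage2 and 27.1, 20.6 and 29.0 CPM in iPSC. For both genes Stage1 replicate 1 stood above the other Stage1 libraries, and the Stage1 libraries overlapped those of Stage2 and iPSC. At Stage1 against MEF, Col4a1 changed by -5.92 ± 0.41 and Col4a2 by -5.69 ± 0.49 on the log2 scale (edgeR, adjusted p = 7.89e-09 and 4.21e-07). At Stage2 against Stage1, Col4a1 was at 0.26 ± 0.35 and Col4a2 at -0.24 ± 0.43, neither past the threshold (edgeR, adjusted p = 0.58 and 0.69). Without Stage1 replicate 1 these became 0.86 for Col4a1 (edgeR, adjusted p = 0.0175) and 0.56 for Col4a2 (adjusted p = 0.109), so that 1 library decides the call for Col4a1 and the direction for Col4a2. The next genes were chosen after their values were seen, so they describe that library and do not test whether it stands apart. In Stage1 replicates 1, 2 and 3, P4ha1, a collagen prolyl hydroxylase subunit, was at 95.5, 36.2 and 38.8 CPM. The perlecan gene Hspg2 was at 124, 68.6 and 71.0 CPM and the pluripotency marker Zfp42 at 42.3, 211 and 207 CPM in the same order. Markers of primitive and parietal endoderm, cell types rich in collagen IV, summed to 239, 312 and 320.3 CPM in the same order. They include Sparc, described below, which was also lowest in replicate 1.

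Of the other collagen IV chains, Col4a5 and Col4a6 lie head to head on the X chromosome, 1308 bases apart. Col4a5 was at 185, 134 and 351 CPM in MEF, 2.14, 1.16 and 0.673 CPM at Stage1, 1.07, 0.494 and 1.36 CPM at Stage2 and 1.43, 0.556 and 0.425 CPM in iPSC, and no library outside MEF overlapped the MEF range. It changed by -7.34 ± 0.47 at Stage1 and by -8.12 ± 0.50 in iPSC, each against MEF (edgeR, adjusted p = 1.74e-09 and 1.21e-09). Col4a6 was at 3.13, 2.41 and 10.1 CPM in MEF, where replicate 3 stood highest, 1.31, 0.626 and 0.926 CPM at Stage1, 0.195, 0.353 and 1.10 CPM at Stage2 and 0.504, 0.0694 and 0.425 CPM in iPSC. Col4a3 and Col4a4, the chains of the kidney glomerular network, start 71 bases apart on chromosome 1 in opposite directions and were near 0. Col4a3 was at 0, 0 and 0.302 CPM in MEF, 0.691, 0.895 and 0.589 CPM at Stage1, 1.76, 1.2 and 0.388 CPM at Stage2 and 0.252, 0.139 and 0.680 CPM in iPSC, a level of 5 to 41 counts per group. Col4a4 had 0 counts in MEF and 16, 22 and 23 counts at Stage1, Stage2 and in iPSC, at least 5.62-fold, 7.27-fold and 7.96-fold higher than MEF against the floor of 3 counts.

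Col18a1 had the highest mean level per kilobase of exon of all the chains at Stage2 and in iPSC, and at Stage1 it lay within the spread of Col4a1 and Col4a2. Its product is cut to release endostatin, an inhibitor of blood vessel growth. It was at 52.7, 70.8 and 172 CPM in MEF, 36.9, 26.1 and 29.4 CPM at Stage1, 175, 157 and 164 CPM at Stage2 and 189, 221 and 211 CPM in iPSC. MEF replicate 3 was over the other MEF libraries and reached the Stage2 range, while the Stage1 libraries lay below all others and the iPSC libraries above all others. It changed by -1.68 ± 0.32 on the log2 scale at Stage1 against MEF and by 2.42 ± 0.33 at Stage2 against Stage1 (edgeR, adjusted p = 0.000222 and 5.3e-05). In iPSC against Stage2 its change of 0.32 ± 0.31 was not called (edgeR, adjusted p = 0.503). It passed there when only those 2 groups were fitted (edgeR, adjusted p = 0.031). In iPSC against MEF it was higher by 1.06 ± 0.31 (edgeR, adjusted p = 0.00577), a call that held without each library in turn. At Stage2 against MEF it was at 0.74 ± 0.31 (edgeR, adjusted p = 0.039), and this call was lost without MEF replicate 1 (adjusted p = 0.106), without MEF replicate 2 (adjusted p = 0.163) and without any 1 of the Stage2 libraries. The other multiplexin, Col15a1, a collagen of basement membrane zones in muscle and vessels, averaged 35.1 ± 2.68 CPM in MEF, 1.03 ± 0.141 CPM at Stage1, 2.35 ± 0.614 CPM at Stage2 and 0.817 ± 0.170 CPM in iPSC (SD, n = 3 each), and changed by -1.52 ± 0.31 in iPSC against Stage2 (edgeR, adjusted p = 0.00361).

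Collagen VI, whose microfibrils of beads link cells to the surrounding matrix, split by chain. Col6a1 was at 411, 409.8 and 567 CPM in MEF, 1.80, 2.69 and 1.68 CPM at Stage1, 9.97, 8.67 and 11.6 CPM at Stage2 and 3.53, 5.69 and 6.80 CPM in iPSC. Col6a2 was at 259, 297 and 399.7 CPM in MEF, 0.622, 1.07 and 0.505 CPM at Stage1, 3.71, 2.68 and 4.79 CPM at Stage2 and 1.85, 0.903 and 2.64 CPM in iPSC. These 2 chains and Col6a3 form the standard molecule, and all fell at Stage1, rose at Stage2 and were lower again in iPSC. Col6a3 was at 507, 492 and 796 CPM in MEF, 2.49, 1.70 and 2.53 CPM at Stage1, 9.77, 9.94 and 12.4 CPM at Stage2 and 5.80, 7.71 and 5.95 CPM in iPSC. Along the 3 steps Col6a1 changed by -7.82 ± 0.27, 2.31 ± 0.25 and -0.92 ± 0.22 on the log2 scale (edgeR, adjusted p = 3.73e-14, 2.41e-06 and 0.0102). The last step of Col6a1 was not called without Stage2 replicate 3 (adjusted p = 0.0646) or iPSC replicate 1 (adjusted p = 0.0731), that of Col6a2 without Stage2 replicate 1, Stage2 replicate 3, iPSC replicate 1 or iPSC replicate 2, and that of Col6a3 without any 1 of the Stage2 libraries, iPSC replicate 1 or iPSC replicate 3.

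The long alternative chains Col6a4, Col6a5 and Col6a6 lie next to each other in the same direction on chromosome 9 and were nearly silent in MEF. Col6a5 was at 0.125, 0.267 and 0.241 CPM in MEF, 3.18, 3.49 and 4.29 CPM at Stage1, 2.34, 3.10 and 1.49 CPM at Stage2 and 1.26, 2.57 and 1.87 CPM in iPSC. Every library outside MEF lay above the MEF libraries, and at Stage1 against MEF it rose by 3.97 ± 0.52 on the log2 scale (edgeR, adjusted p = 1.63e-06). Its mean was highest at Stage1, but the later groups were not called against Stage1. The change was -0.66 ± 0.40 at Stage2 and -0.93 ± 0.40 in iPSC (edgeR, adjusted p = 0.197 and 0.076). Col6a4 was at 0.752, 0.267 and 0.362 CPM in MEF, 0.968, 0.447 and 1.01 CPM at Stage1, 1.95, 1.83 and 2.26 CPM at Stage2 and 2.35, 2.01 and 1.79 CPM in iPSC. It was higher by 2.22 at Stage2 and by 2.25 in iPSC, each against MEF (edgeR, adjusted p = 0.000725 and 0.000678). Col6a6 was at 0.251, 0 and 0.0603 CPM in MEF, 0.484, 0.269 and 0.421 CPM at Stage1, 0.879, 1.06 and 1.03 CPM at Stage2 and 0.420, 0.556 and 0.425 CPM in iPSC. With 3 counts over the MEF group, its ratio to MEF was 5.27 (95% counting interval 1.49 to 28.4) at Stage1, 13.2 (4.21 to 66.8) at Stage2 and 6.23 (1.82 to 33.0) in iPSC.

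The short-chain network formers and the anchoring fibril chain fell with the fibrillar ones. Col8a1, a chain of the hexagonal lattice under corneal and vascular endothelium, was at 1022, 967 and 1288 CPM in MEF, 0.553, 1.07 and 1.35 CPM at Stage1, 4.20, 5.01 and 7.83 CPM at Stage2 and 2.94, 4.03 and 2.13 CPM in iPSC. Its Stage1 libraries lay below, and its Stage2 libraries above, those of iPSC. It changed by -10.13 ± 0.32, 2.56 ± 0.33 and -0.91 ± 0.27 on the log2 scale along the 3 steps (edgeR, adjusted p = 1.87e-14, 1.15e-05 and 0.0288), and the last call was lost without Stage2 replicate 3, where the adjusted p was 0.21, without iPSC replicate 1 and without iPSC replicate 3. Its partner Col8a2 had 2 counts over the Stage1 group and 773 over the MEF group, so that its level in MEF was 367 times that of Stage1 (95% counting interval 101 to 3035), with MEF replicate 3 at 38.3 CPM and the others near 6 CPM. Col10a1, the collagen of hypertrophic cartilage, averaged 63.7 ± 58.0 CPM in MEF and 0.285 to 1.2 CPM in the other groups, and MEF replicate 2 was highest at 129 CPM. Col7a1, which anchors the epidermis to the dermis, averaged 155 ± 87.9 CPM in MEF and stayed at 2.30 to 3.24 CPM in the other groups. It was not called between any of those 3 groups, with an edgeR adjusted p of 0.637, 0.76 and 0.382. Keratinocyte markers summed to 1.32 to 4.76 CPM over all 12 libraries.

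Of the 4 transmembrane collagen genes, 2 were called higher and 0 lower at Stage1 against MEF. Over all genes, 44.2% were higher and 36.1% lower there, so the higher calls were near the share of all genes. Col13a1, found at cell adhesions and at the nerve-muscle junction, had 0 counts in MEF and was at 0.484, 0.447 and 0.337 CPM at Stage1, 2.83, 2.40 and 2.2 CPM at Stage2 and 9.83, 5.69 and 7.31 CPM in iPSC. The groups did not overlap at any step. It was at least 5.62-fold higher at Stage1, at least 32.0-fold at Stage2 and at least 98.6-fold in iPSC than in MEF, set against the floor of 3 counts. It rose by 2.51 ± 0.44 at Stage2 against Stage1 and by 1.62 ± 0.35 in iPSC against Stage2 (edgeR, adjusted p = 0.000368 and 0.00665). Col13a1 was the gene of the 44 called higher at all 3 steps. Col17a1, part of the hemidesmosome of epithelial cells, averaged 0.223 ± 0.386 CPM in MEF, 1.64 ± 0.439 CPM at Stage1, 1.83 ± 0.650 CPM at Stage2 and 3.30 ± 0.164 CPM in iPSC (SD, n = 3 each), and was higher in iPSC than in MEF by 3.68 ± 0.73 on the log2 scale (edgeR, adjusted p = 0.000169). Col23a1 was not called in any comparison, and Col25a1, a collagen of neurons, averaged 1.73 ± 0.179 CPM in MEF and 0.491 to 0.754 CPM in the other groups. Against MEF, Col25a1 was at -1.20 ± 0.60 on the log2 scale at Stage1, at -1.79 ± 0.63 at Stage2 and at -1.43 ± 0.61 in iPSC (edgeR, adjusted p = 0.0756, 0.0142 and 0.04), so that it was called lower at Stage2 and in iPSC. Of the unclassified chains, Col26a1 averaged 2.96 ± 0.411 CPM at Stage2, against 0.322 ± 0.0857 CPM at Stage1, and rose by 3.17 ± 0.78 (edgeR, adjusted p = 0.00379). Col28a1 was not called in any comparison.

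**Figure D3:**
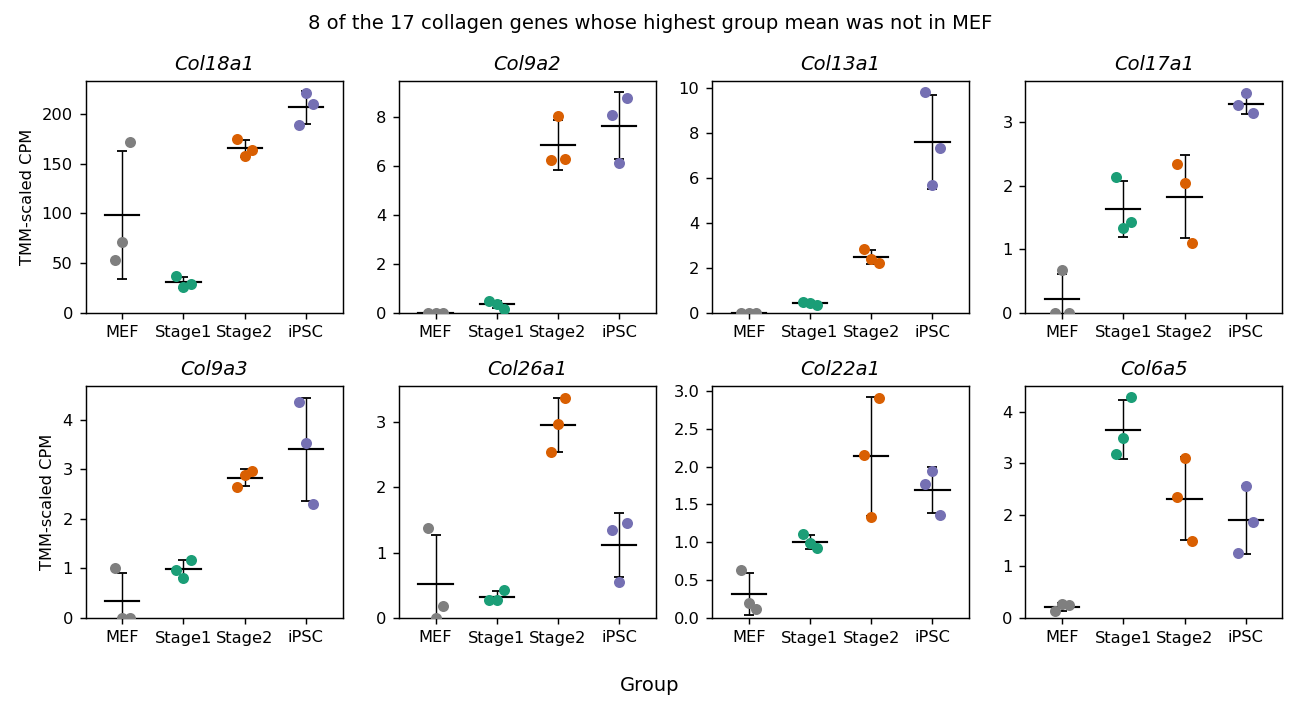
TMM-scaled CPM of 8 of the 17 collagen genes whose highest group mean was not in MEF, for the 3 libraries (points) of each group, with the mean (wide line) and SD (whiskers), on a scale of its own for each gene. Col13a1 and Col9a2 are at 0 in the 3 MEF libraries, Col18a1 dips at Stage1, Col6a5 is highest at Stage1 and Col26a1 is highest at Stage2.

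With the fibrillar chains so low, the make-up of the collagen RNA differed by group. Fibrillar chains took 70.6%, 72.3% and 68.2% of collagen counts in the MEF libraries, 14.1%, 29.5% and 26.7% at Stage1, 32.3%, 27.7% and 33.0% at Stage2 and 19%, 21.0% and 21.0% in iPSC. The basement membrane network took 9.22%, 10.2% and 12.5% in MEF, 47.4%, 22.7% and 26.7% at Stage1, 10.5%, 12.5% and 9.98% at Stage2 and 20.5%, 12.4% and 15.4% in iPSC, with Stage1 replicate 1 the highest library. The multiplexins, mainly Col18a1, took 0.360% to 0.601% in MEF, 19.8% to 22.4% at Stage1, 31.0% to 35.5% at Stage2 and 45.8% to 51.9% in iPSC. Their shares did not overlap between the groups, and the order was MEF, Stage1, Stage2, iPSC. Fibril-associated chains took 7.65% to 9.88% in MEF, 8.93% to 14.9% at Stage1, 13.6% to 15.8% at Stage2 and 5.52% to 6.51% in iPSC.

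**Figure D4:**
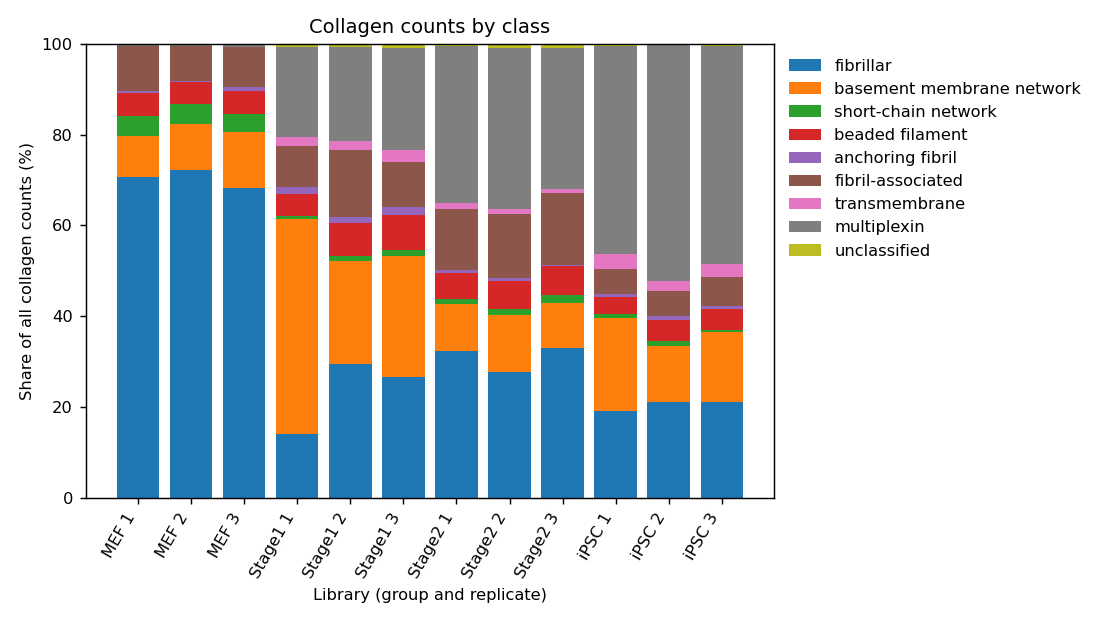
Share of all collagen counts (%) taken by each of the 9 classes in each of the 12 libraries, as stacked bars that add to 100%. Fibrillar chains fill most of the MEF bars, the basement membrane network is largest in Stage1 replicate 1, and the multiplexins grow to about as much as all other classes together in the iPSC bars.

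Levels of different genes were compared per kilobase of annotated exon (RPKM, TMM-scaled). In MEF the order was Col1a2 at 555 ± 72.6, Col1a1 at 441 ± 101 and Col5a2 at 410.5 ± 68.1 RPKM (SD, n = 3), followed by Col5a1 and Col3a1 at 291 ± 88.9 and 289 ± 80.5 RPKM, and the mean ± SD of each overlapped that of its neighbour in this order. At Stage1 Col18a1 at 4.38 ± 0.783, Col4a1 at 3.62 ± 2.15 and Col4a2 at 3.32 ± 2.48 RPKM led, and their mean ± SD overlapped. At Stage2 Col18a1 at 23.6 ± 1.27 RPKM stood clear of Col4a1 at 4.37 ± 0.0512 RPKM and Col12a1 at 3.53 ± 0.666 RPKM. In iPSC Col18a1 at 29.5 ± 2.37 RPKM was followed by Col4a1 at 5.49 ± 1.67 and Col4a2 at 3.86 ± 0.670 RPKM, which overlapped, and by Col9a2 at 2.47 ± 0.444 RPKM below them. The exon length is the union over transcripts, 12426 bases for Col1a2 and 6563 for Col1a1, so the order of those chains depends on the annotation.

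Chains that join in the same molecule were compared within a library, as a log2 ratio of their levels per kilobase of exon, which needs no scaling between libraries. The ratio of Col1a1 to Col1a2 was -0.35 ± 0.31 in MEF, -0.40 ± 0.25 at Stage1, 0.13 ± 0.38 at Stage2 and -0.11 ± 0.21 in iPSC (SD, n = 3 each). The ratio of Col4a1 to Col4a2 was 0.35 ± 0.09 in MEF, 0.22 ± 0.24 at Stage1, 0.63 ± 0.13 at Stage2 and 0.48 ± 0.35 in iPSC. In both pairs the group means of the ratio differed by under 1 log2 unit, while the levels of these chains at Stage1 were lower than in MEF by at least 5 log2 units. The ratio of Col5a1 to Col5a2 was -0.53 ± 0.35 in MEF, -2.23 ± 0.69 at Stage1, 0.04 ± 0.28 at Stage2 and -0.07 ± 0.16 in iPSC. Its 3 Stage1 values lay below those of the other 9 libraries, so that Col5a1 stood further below Col5a2 at Stage1 than in any other group. The ratio of Col6a1 to Col6a2 was 1.47 ± 0.10 in MEF, 2.39 ± 0.21 at Stage2 and 2.58 ± 0.90 in iPSC, and is not given for Stage1, where Col6a2 had too few counts. The ratio in MEF was 5.85 ± 0.42 for Col4a5 over Col4a6 and 5.80 ± 1.33 for Col8a1 over Col8a2.

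Genes with a MEF mean of at least 5 CPM can be read as a share of that level, though choosing them by MEF favours genes that are high there. Over these 26 genes the Stage1 mean lay between 0.0506% of the MEF mean for Col1a1 and 31.2% for Col18a1. At Stage2 the range was 0.437% for Col4a5 to 168% for Col18a1, and in iPSC it was 0.244% for Col1a2 to 209.7% for Col18a1. Col18a1 was the gene of the 26 above 100% in any group. The 12 fibroblast markers lay at 0.0169% (Postn) to 6.40% (Pdgfra) of their MEF mean at Stage1, 0.257% (Postn) to 12.8% (Pdgfra) at Stage2 and 0% (Lum) to 25.3% (Pdgfra) in iPSC.

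**Figure D5:**
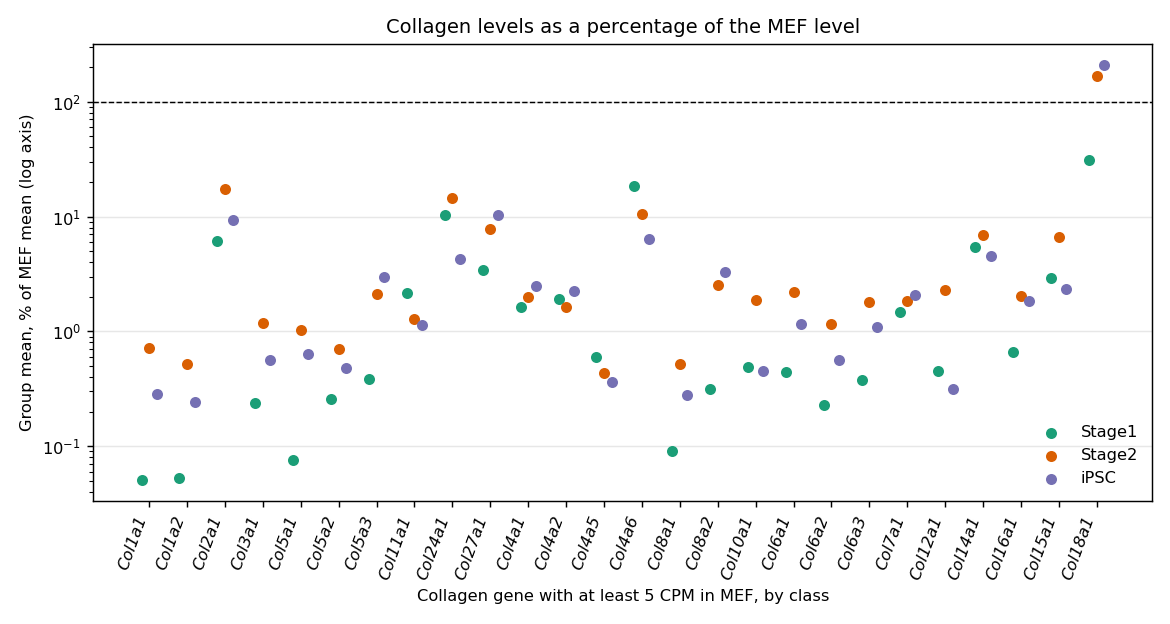
Group mean at Stage1, Stage2 and in iPSC as a percentage of the MEF mean, on a log axis, for the 26 collagen genes with at least 5 CPM in MEF, ordered by class. The dashed line is the MEF level (100%), and Col18a1 at Stage2 and in iPSC is the gene above it, while Col1a1 and Col1a2 at Stage1 are the lowest points.

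The MEF libraries were not alike in their collagens. Of the 26 genes with a MEF mean of at least 5 CPM, 21 were highest in MEF replicate 3, 4 in replicate 2 and 1 in replicate 1. The ratio of the highest to the lowest MEF library had a median of 1.85 over these genes and was 7.86 for Col2a1. All 26 genes lower than MEF at Stage1 and all 26 lower at Stage2 were also called without MEF replicate 3, while Col18a1 at Stage2 against MEF lost its call without MEF replicate 1 or 2, as given above.

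Enzymes and chaperones of collagen synthesis fell with the chains at Stage1. Of the 35 such genes in the files 33 were tested, and at Stage1 against MEF 29 fell and 1 rose (edgeR, adjusted p below 0.05), with a median log2 fold change of -3.91, where 36.1% of all genes were lower and 44.2% higher. Lox, which cross-links collagen and elastin, was at 1.66, 1.61 and 2.44 CPM in Stage1 cells, against 2346, 2558 and 2950.2 CPM in MEF cells, and its relative Loxl1 averaged 0.588 ± 0.381 CPM at Stage1, against 416 ± 103 CPM in MEF (SD, n = 3 each). The gene that rose was Pepd, the peptidase that recycles proline from collagen fragments, at 32.5 ± 3.67 CPM at Stage1, against 10.6 ± 0.975 CPM in MEF. At Stage2 against Stage1, 16 rose and 6 fell, with a median of 0.69, where 20.6% of all genes were higher and 19.8% lower. Lox rose by 4.18 ± 0.21 on the log2 scale (edgeR, adjusted p = 3.12e-10) and Loxl4, another cross-linking oxidase, changed by -3.49 ± 0.31 (adjusted p = 2.38e-07). In iPSC against Stage2, 5 rose and 1 fell, with a median of 0.20, where 9.21% of all genes were higher and 8.87% lower. Fkbp10, a chaperone of procollagen, was at 21.3, 18.4 and 20.8 CPM in iPSC, against 5.96, 5.5 and 8.60 CPM at Stage2, and Pcolce, the enhancer of procollagen cleavage, averaged 25.5 ± 4.06 CPM in iPSC, against 13.2 ± 2.47 CPM at Stage2. The gene that fell was Lox, which changed by -1.62 ± 0.17 (edgeR, adjusted p = 2.04e-05).

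Of the 14 collagen receptor genes, 12 were tested, and the shares of all genes called at each step are those just given for the synthesis genes: 36.1% lower at Stage1, 20.6% higher and 19.8% lower at Stage2, and 9.21% higher and 8.87% lower in iPSC. At Stage1 against MEF, 10 fell and 0 rose with a median log2 fold change of -5.27, among them Itga11, the alpha chain of a fibrillar collagen integrin, at 0.573 ± 0.151 CPM at Stage1, against 317 ± 186 CPM in MEF. At Stage2 against Stage1, 5 rose and 1 fell with a median of 0.96. The receptor that fell was Itga1, an integrin chain that binds collagen IV, at 5.37, 2.89 and 3.36 CPM at Stage2, against 17.9, 36.2 and 38.4 CPM at Stage1. In iPSC against Stage2, 1 rose and 2 fell with a median of -0.36, and Ddr2, a kinase receptor for fibrillar collagen, changed by -1.89 ± 0.27 on the log2 scale (edgeR, adjusted p = 0.000286).

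Of the 16 genes of small proteoglycans and glycoproteins that regulate fibrils, 15 were tested. Against the stage before, 13 fell and 0 rose at Stage1, 8 rose and 0 fell at Stage2, and 8 fell and 0 rose in iPSC, with median log2 fold changes of -6.68, 1.33 and -1.26. Over all genes, 36.1% were lower at Stage1, 20.6% higher at Stage2 and 8.87% lower in iPSC at these steps. The small proteoglycan gene Bgn was at 4699.7, 3922 and 5806 CPM in MEF, 0.899, 1.97 and 1.35 CPM at Stage1, 28.6, 18.1 and 33.4 CPM at Stage2 and 5.63, 7.43 and 8.85 CPM in iPSC. Fmod, another of these proteoglycans, averaged 0.126 ± 0.111 CPM in iPSC, against 2.38 ± 0.842 CPM at Stage2. The fibroblast list holds Postn, Dcn and Lum too, so the 2 lists are not independent. Postn changed by -12.49 ± 0.39 on the log2 scale at Stage1 and by 3.89 ± 0.37 at Stage2 (edgeR, adjusted p = 2.17e-14 and 4.45e-07).

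Of 20 genes for other proteins of the basement membrane 19 were tested, and at Stage1 against MEF 5 rose and 8 fell, at Stage2 against Stage1 7 rose and 2 fell, and in iPSC against Stage2 1 rose and 0 fell (edgeR, adjusted p below 0.05). Over all genes 44.2% were higher and 36.1% lower at the first of these steps, 20.6% and 19.8% at the second, and 9.21% and 8.87% at the third. The median log2 fold changes were -0.24, 0.65 and 0.04, beside 0.27, 0.02 and 0.04 over all genes at the same steps. At Stage1 against MEF the laminin chain gene Lama3 rose by 6.76 ± 0.48 and Frem2, which anchors embryonic epithelia to their basement membrane, by 5.79 ± 0.45 on the log2 scale (edgeR, adjusted p = 5.3e-10 and 1.56e-09). Sparc, a collagen-binding glycoprotein, was at 46.9, 89.3 and 102 CPM in Stage1 cells, against 8424, 8349.8 and 7850.5 CPM in MEF cells. Lamb1, a laminin chain, was at 163 ± 4.76 CPM in iPSC, against 101 ± 11.8 CPM at Stage2, and was the gene that rose at that step, by 0.70 ± 0.20 (edgeR, adjusted p = 0.0208).

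Markers of other cell types that make collagens were read as sums. The endoderm list, which shares genes with the basement membrane list, summed to 8590.4 to 9065 CPM in MEF, 239 to 320.3 CPM at Stage1, 323 to 412 CPM at Stage2 and 449 to 501 CPM in iPSC, with Sox17 and Foxa2 at 0 in MEF. Sparc, whose levels in MEF and at Stage1 are given above, made up most of the MEF sum. Of its 11 tested genes, 7 rose and 1 fell at Stage2 against Stage1, and 1 rose and 0 fell in iPSC against Stage2, where 20.6% and 9.21% of all genes were higher. Markers of endothelium, another source of collagens IV and XVIII, summed to 9.76 to 17.5 CPM in MEF, 46.0 to 57.1 CPM at Stage1, 77.7 to 105 CPM at Stage2 and 79.2 to 109 CPM in iPSC. Of the 5 endothelial genes, 1 reached a mean of 5 CPM in MEF and 2 did in each other group. At Stage2 against Stage1, 1 of the 4 tested rose and 0 fell, where 20.6% of all genes were higher. The part of such cells in the levels of Col4a1, Col4a2 and Col18a1 was not tested. Osteoblast markers summed to 13.0 to 22.2 CPM in MEF and 95.6 to 171 CPM elsewhere, macrophage markers to 94.1 to 107 CPM and 7.41 to 29.1 CPM, neural crest and glia markers to 0.376 to 1.00 CPM and 22.4 to 39.1 CPM, and trophoblast markers to 2.25 to 5.55 CPM and 1.38 to 12.1 CPM. In each group 1 of the 5 osteoblast genes reached a mean of 5 CPM. At Stage1 against MEF, 1 of the 2 tested was higher and 1 lower, where 44.2% of all genes were higher and 36.1% lower. Of the 5 neural crest and glia genes, 0 reached that level in MEF, 2 at Stage1, 3 at Stage2 and 1 in iPSC. Whether such cells were present was not tested. Pluripotency markers summed to 4.13 to 5.62 CPM in MEF, 1633 to 2141 CPM at Stage1, 2889.8 to 3079 CPM at Stage2 and 2649 to 2864 CPM in iPSC.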

How the data were processed

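Total RNA was extracted with a miRNeasy kit, per the labels' protocols. Selection of RNA for the libraries, strandedness, read layout and annotation version are not given in the sources used here. The submitters' processing notes name TopHat2 2.0.9, Bowtie2 2.2.6, SAMtools 0.1.19, HTSeq 0.5.4p3, DESeq2 1.12.4 and the build mm10. The deposited values are whole-number counts of reads per gene, not normalized, in 12 files of 23420 genes. Lines that name no gene were left out of library sizes. Reads outside genes were 8.86% to 53.4% of the reads in genes, outside genes or ambiguous between genes. Gene totals ran from 8916223 to 19011944.

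The tests used edgeR 4.0.16, with limma 3.58.1 and statmod 1.5.0, under R 4.3.3: genes kept by filterByExpr, TMM scaling, robust quasi-likelihood fit of all 12 libraries with a term per group, and Benjamini-Hochberg adjustment over the 14770 genes tested, called below 0.05. The scripts were tested on simulated data. CPM are scaled by TMM, and RPKM divide them by the union of GENCODE vM21 exons. Groups follow the sample titles. DESeq2 1.42.0, other scalings and filters, a 2-fold threshold, a replicate block, fits of 2 groups and leaving out each library were alternatives.

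The members, classes and gene lists were chosen with earlier results of these data known. Values per library are given for the chains of collagens I, III, IV, V, VI, XII and XVIII, for the 3 called members of largest fold per comparison and direction with at least 5 CPM in the higher group, for members lower at Stage1 and higher at Stage2 with at least 5 CPM, and for members of at least 5 CPM whose highest group was not MEF. Of other lists, the 2 called genes of largest fold per direction serve as examples. P4ha1, Hspg2 and Zfp42 at Stage1 were outside this rule and were chosen after their values were seen.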

Additional observations from a re-analysis of the deposited data

How the results depend on the processing

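The counts of called collagen genes that moved by over 1.5 times were these. Genes lower at Stage2 than at Stage1 numbered 1, and 0 with library totals or a 2-fold threshold. Genes lower in iPSC than at Stage1 numbered 2, and 1 with library totals or with no filter and 0 with a 2-fold threshold. Genes higher at Stage1 than in MEF numbered 8, 3 with only the 2 groups compared and 4 with a 2-fold threshold. In iPSC against Stage2, 1 was higher, 2 with only the 2 groups and 0 with a 2-fold threshold, and 11 were lower, 1 with a 2-fold threshold. In iPSC against Stage1, 17 were higher and 7 with a 2-fold threshold. With library totals the summed collagen level was 563 CPM at Stage2 and 449 CPM in iPSC, and the median of all genes shifted by 0.182 at Stage1 against MEF, 0.204 at Stage2 against Stage1 and -0.0999 in iPSC against Stage2. RLE scaling left 164 of 165 results on the same side of the threshold, DESeq2 162 and the stricter filter 160 of 160. The fits of 2 groups tested fewer members, so they give 158 results.

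Without each library in turn, the higher and lower counts were 6 to 9 and 26 to 27 at Stage1 against MEF, 17 to 23 and 0 to 1 at Stage2 against Stage1, 1 to 1 and 4 to 13 in iPSC against Stage2, 13 to 18 and 0 to 2 in iPSC against Stage1, 11 to 13 and 26 to 27 at Stage2 against MEF, and 9 to 11 and 25 to 26 in iPSC against MEF. The summed level ran from 24475 to 29848 CPM in MEF, 134 to 164 at Stage1, 482 to 526 at Stage2 and 421 to 434 in iPSC. The log2 change of Col4a2 at Stage2 against Stage1 was -0.24 with all libraries and ran from -0.57 to 0.56 without each in turn, with 0.56 without Stage1 replicate 1. The cause of these changes was not tested.

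What equal replicate numbers share is not given in the sources used here. The correlation of deviations ran from -0.132 to 0.245 over 18 same-numbered pairs, with a median of 0.051 and 2 of them above 0.1. Over the 36 other pairs it ran from -0.177 to 0.114, with a median of -0.025 and 3 above 0.1. Of the 12 libraries, 8 correlated best with their own number. With a replicate block, 1 collagen gene was lower in iPSC than at Stage1, where 3075 of all genes were higher and 2585 lower. With that block, Col27a1 at Stage2 against Stage1 had an edgeR adjusted p of 0.0529. Low counts limit the precision of Col4a3, Col6a6 and Col8a2.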
